A study of Danio rerio with 8 samples.

Results

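Cells make cholesterol from acetyl-CoA through the mevalonate pathway, which leads over squalene and lanosterol to the finished sterol, and they make fatty acids from the same acetyl-CoA through carboxylation, chain building, elongation and desaturation. Both routes are controlled by the SREBP transcription factors, membrane proteins of the endoplasmic reticulum that the sterol-sensing INSIG proteins hold back when sterol is plentiful. In vertebrates the srebf2 product is best known for driving sterol genes and the srebf1 product for driving fatty acid genes. A list of 30 zebrafish genes for these enzymes, their regulators and sterol uptake was followed here by matching gene symbols exactly. Of the 30, 28 had a row among the 25279 gene symbols of the count table, and acly and sqleb had none. An edgeR filter on low counts passed 17 of the 28, and 11 were too low to be tested.

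The series compared runx2b-/- zebrafish, which lack a Runx2 transcription factor of bone formation, with wild type fish. Read counts came from bulk RNA of tail muscle together with its intermuscular bones, the thin bones between the muscle segments of teleosts. Both groups had 3 libraries, were sampled at 60 days post fertilization and carried the same Tg (sp7/eGFP) transgene, a green fluorescent reporter named for an osteoblast gene. Nothing in the labels shows that the libraries within a genotype were made from different fish. The p-values therefore reflect only how much these libraries varied, some of which may be technical. The 2 single-cell samples of the series were not analysed here.

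Depth was 17280098 to 20482003 counts per library, and 3 counts in a library corresponded to 0.134 to 0.181 CPM (counts scaled to a common library size with TMM factors). Values given by library follow the order of libraries 1, 2 and 3. The transcript of the mutated gene runx2b was near that floor, with 2 to 6 counts in every library of either group, so it does not check the genotype labels. Fast and slow muscle markers were abundant in every library, with summed levels of 187578 to 347763 CPM over 12 genes, and 0 of the 12 were called. Markers of other tissues did differ. The 9 ovary and germ cell markers summed to 15.5, 6.90 and 0.343 CPM in wild type libraries 1, 2 and 3 and to between 0.218 and 0.967 CPM in the mutant libraries. The 17 liver markers summed to 33.9, 33.6 and 35.6 CPM in wild type, by library, and to 1.2 to 2.72 CPM in mutant. The 4 called members of that list were all vitellogenins, the yolk precursors, which female fish make. The labels do not give the sex of the fish, so sex may differ between the groups and between libraries of a group. Its part in the differences below, among them those of hmgcs1, nus1 and me1, was not tested. In bulk tissue, fewer cells of a type and less RNA per cell cannot be told apart.

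Members of the pathway were expressed at modest levels, and steps within it differed widely per length of gene. In wild type the mevalonate gene hmgcs1 stood highest, with a mean of 4.04 CPM per kilobase and a range of 2.71 to 5.87 over the 3 libraries. The sterol regulator srebf2 followed at 2.96 CPM per kilobase (2.72 to 3.25), with fdps at 2.95 (2.39 to 3.78) and hmgcrb at 2.54 (2.53 to 2.55). The ranges of hmgcs1, srebf2 and fdps overlapped, and that of hmgcrb lay inside the range of fdps but below that of srebf2. In the mutant srebf2 came first at 2.96 CPM per kilobase (2.90 to 3.07), and its range lay above those of fdps (1.92 to 2.56), hmgcrb (2.1 to 2.45) and hmgcs1 (1.77 to 2.13). The fatty acid synthase gene fasn was low on this scale, at 0.0571 CPM per kilobase in wild type and 0.0730 in mutant, whereas acaca, the carboxylase gene of the preceding step, stood at 0.797 and 0.986.

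**Figure D1:**
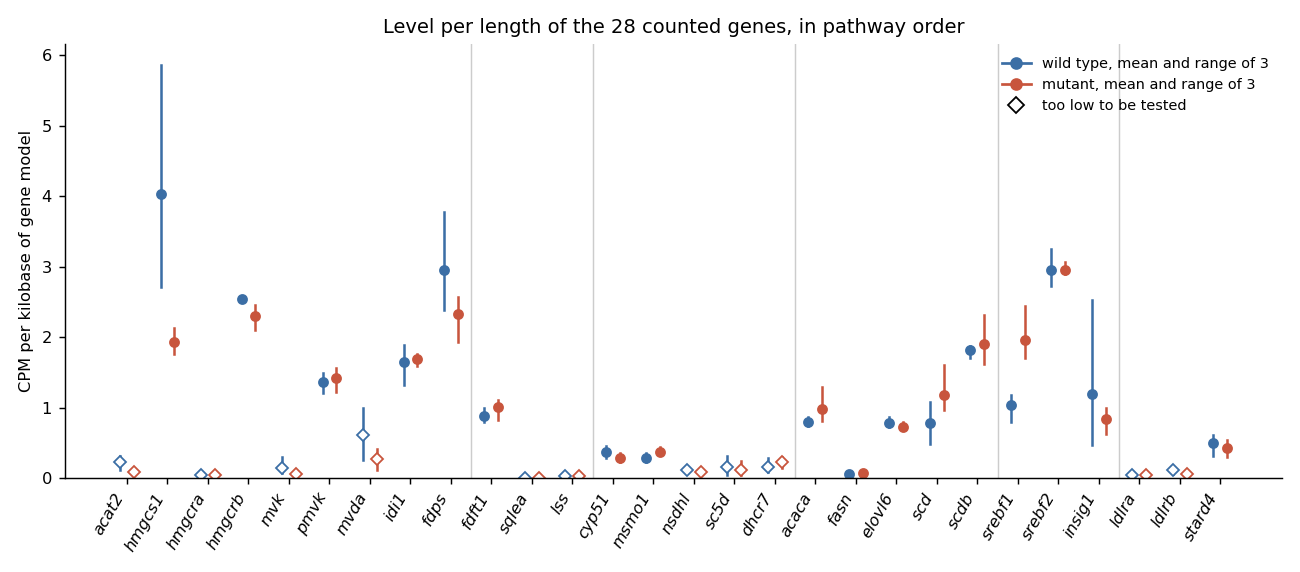
Level per length (CPM per kilobase of the gene model, vertical axis) of the 28 counted genes in pathway order, with the mean as a marker and the range of 3 libraries as a line, wild type in blue and mutant in red. Grey lines part the mevalonate, squalene, late sterol, fatty acid, regulator and uptake genes. hmgcs1 is highest in wild type (4.04) and srebf2 in mutant (2.96), and open diamonds mark the 11 genes too low to be tested.

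Of the 17 tested members 1 was lower in the mutant, hmgcs1, and 1 was higher, srebf1, where a call was an adjusted p under 0.05 in edgeR's quasi-likelihood test across 14107 genes. The background of that test was 3.37% of tested genes called, with 1.76% higher and 1.62% lower. An unadjusted p under 0.05 was reached by the same number of members, 2, and by 19.4% of all tested genes. The median log2 fold change (mutant minus wild type) of the 17 was 0.02, beside -0.01 over all tested genes. Of the 17, 9 lay above 0 and 8 below. The groups did not overlap, with the mutant higher, in 1 of the 17 (12.8% of all tested genes) and, with the mutant lower, in 2 (11.7% of all tested genes).

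**Figure D2:**
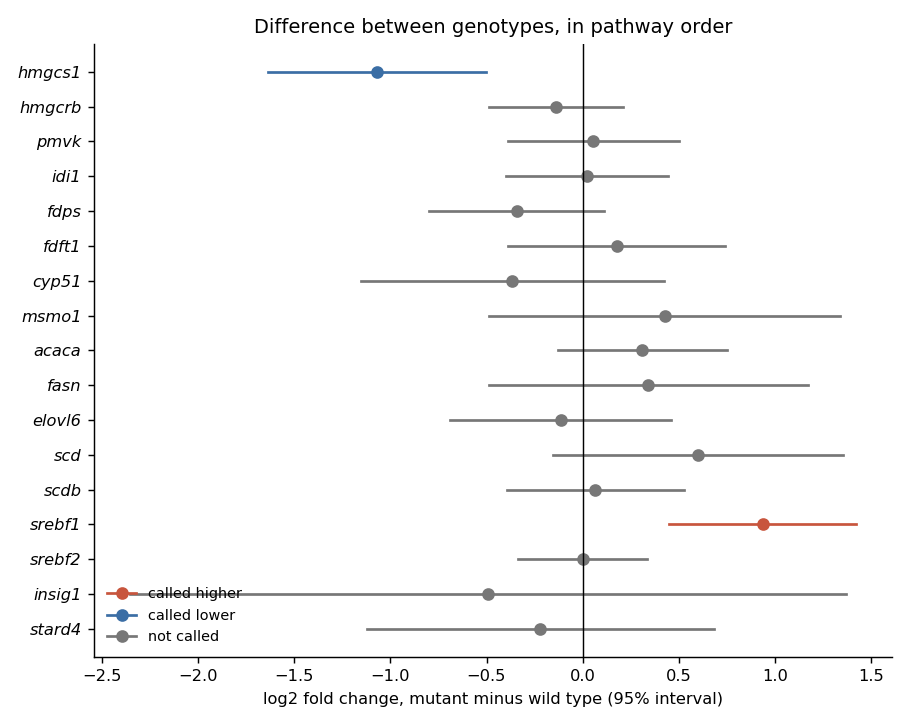
Log2 fold change (mutant minus wild type, horizontal axis) with its 95% interval from edgeR for the 17 tested genes in pathway order. The interval of hmgcs1 (-1.64 to -0.50) lies below 0 and that of srebf1 (0.45 to 1.42) above 0, and the other 15 intervals hold 0.

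The mevalonate steps turn acetyl-CoA into the isoprenoid building blocks of sterols. Their second step, the condensation that makes HMG-CoA, is carried out by the product of hmgcs1 (chromosome 10, 6009365 to 6033188, as the table gives positions). hmgcs1 stood at 20.1, 12.1 and 9.31 CPM in wild type libraries 1, 2 and 3 and 6.06, 7.31 and 6.49 CPM in mutant. All wild type libraries lay above all mutant libraries, and the wild type libraries differed among themselves more than the mutant ones did. The means were 13.9 ± 5.63 and 6.62 ± 0.636 CPM (SD, n = 3 each), a fall of 2.1-fold (log2 fold change -1.07, SE 0.26, edgeR adjusted p = 0.0489).

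hmgcs1 was highest in wild type library 1. Without that library its log2 fold change was -0.71 with an edgeR adjusted p of 0.0493. Without wild type library 2, mutant library 1, mutant library 2 or mutant library 3 the call ended (edgeR adjusted p of 0.112, 0.215, 0.130 and 0.201). Wild type libraries 1 and 2 also held the ovary and germ cell markers listed above, in the same order as hmgcs1 (buc, an oocyte gene, had 145, 62 and 1 counts in wild type and 0 to 3 in the mutant libraries). With both left out, the log2 fold change was -0.51 (SE 0.22). That setting was chosen after seeing the data and leaves a lone wild type library, so the spread comes from the mutant libraries only. The libraries left out were the 2 with the highest hmgcs1 of the wild type, so a smaller difference was fixed in advance. The part of these markers in the difference was not tested. The adipocyte hormone gene adipoqa followed a like course, at 33.0, 26.2 and 19.5 CPM in wild type and 14.2 to 16.2 CPM in the mutant, and was lower in the mutant (log2 fold change -0.80, SE 0.19, edgeR adjusted p = 0.0441). It was the only 1 of 7 tested genes of the adipocyte marker list that was called, beside 3.37% of all tested genes. The part of adipocytes in the hmgcs1 difference was not tested either. The most abundant adipocyte marker, the lipid-binding gene fabp11a, stood at 333 CPM in wild type and 334 CPM in mutant (log2 fold change 0.00, adjusted p = 0.994).

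**Figure D3:**
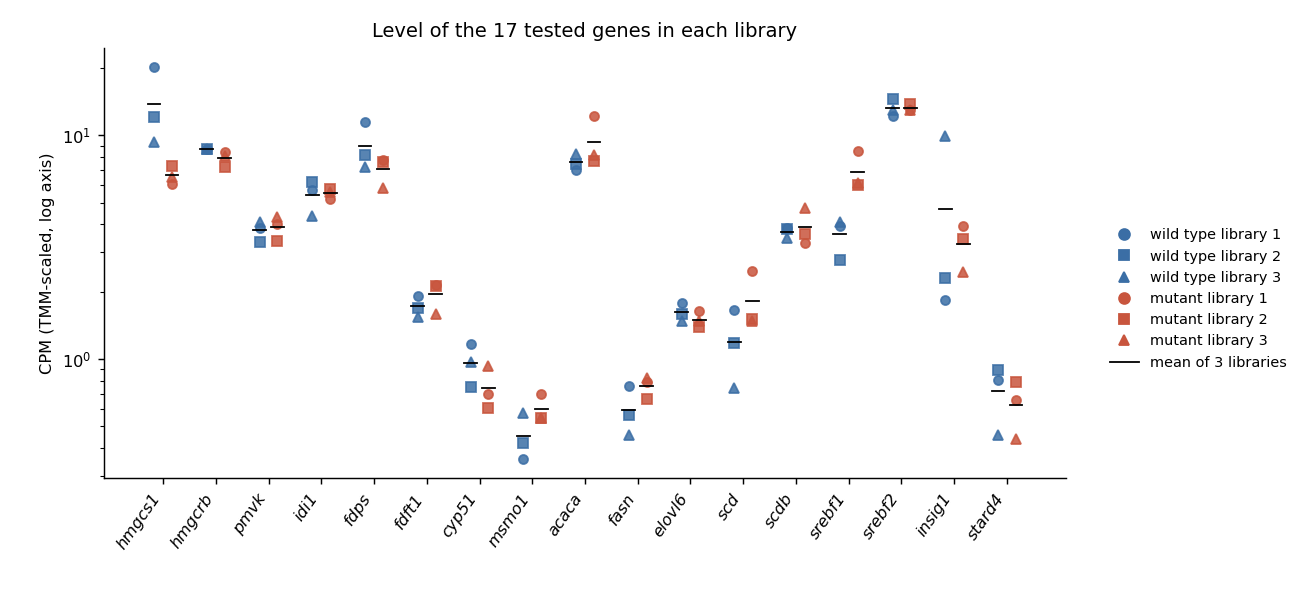
CPM (log axis) of the 17 tested genes in each library, with circles, squares and triangles for libraries 1, 2 and 3, blue for wild type and red for mutant, and a bar at the mean of 3. The wild type points of hmgcs1 lie above and those of srebf1 below all mutant points of the same gene, and insig1 has 1 wild type point far above the others at 9.93 CPM.

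HMG-CoA reductase, the main control point of sterol synthesis, has a pair of genes in the zebrafish. hmgcrb (chromosome 21, 2480189 to 2507425) held 98.3% of the reductase counts in wild type (532 of 541 counts, exact 95% interval 96.9% to 99.2%) and 98.2% in mutant (447 of 455, 96.6% to 99.2%). Both intervals pool the counts of a genotype and cover counting error only, not the spread between libraries. The level of hmgcrb was 8.67, 8.69 and 8.73 CPM in wild type and 8.39, 7.19 and 8.08 CPM in mutant. The groups did not overlap, yet the difference was small and not called (log2 fold change -0.14, SE 0.16, 95% interval -0.49 to 0.21, edgeR adjusted p = 0.690). hmgcra reached only 9 counts over the wild type libraries and 8 over the mutant ones. With the counts of both genes summed for the step, the log2 fold change was -0.14 (SE 0.16, edgeR adjusted p = 0.698); 3.37% of rows were called in that table.

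Whether synthase and reductase moved apart was asked within libraries, where scaling does not enter. The log2 ratio of hmgcs1 to hmgcrb counts was 1.21, 0.48 and 0.09 in wild type and -0.47, 0.02 and -0.31 in mutant. All wild type ratios lay above all mutant ratios, by 0.85 on average. That gave p = 0.1 by a two-sided exact permutation test, the smallest p that 3 against 3 libraries allow, or 0.2 adjusted over 6 such ratios. This ratio was added after the data had been seen.

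The later mevalonate genes were not called. pmvk, for phosphomevalonate kinase, stood at 3.76 ± 0.394 CPM in wild type and 3.90 ± 0.473 in mutant (log2 fold change 0.06, SE 0.20). idi1, for the isomerase of isopentenyl diphosphate, stood at 5.40 ± 0.958 and 5.51 ± 0.265 CPM (0.02, SE 0.19). Both levels overlapped between groups, and each 95% interval stayed within 1 on the log2 scale.

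fdps, for farnesyl diphosphate synthase, stood at 11.5, 8.17 and 7.25 CPM in wild type and 7.78, 7.61 and 5.84 CPM in mutant. The groups overlapped, with wild type library 1 the highest, as for hmgcs1 (log2 fold change -0.34, SE 0.21, 95% interval -0.80 to 0.11, edgeR adjusted p = 0.404). Without wild type library 1 the log2 fold change of fdps was -0.13. Exons of the fdps model overlap those of si:dkey-85k15.7 on the same strand, so reads could have been split or dropped there.

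The remaining mevalonate genes had too few counts to be tested. mvda, for mevalonate diphosphate decarboxylase, was counted 29, 16 and 6 times in wild type, in the order of hmgcs1 and the ovary markers, and 3, 6 and 10 times in mutant. The groups overlapped. The ratio of mutant to wild type over the summed counts was 0.405, with an exact 95% counting interval of 0.226 to 0.697. acat2, the thiolase gene of the opening step, reached 27 counts over wild type and 10 over mutant libraries (ratio 0.402, interval 0.174 to 0.858), and the kinase gene mvk had 16 and 5 (ratio 0.340, interval 0.0973 to 0.970). These intervals cover counting error only and not the spread between libraries: with no filter, edgeR's adjusted p was 0.208 for mvda, 0.386 for acat2 and 0.492 for mvk. Summed over the 9 mevalonate genes, the level was 52.2, 40.0 and 34.7 CPM in wild type and 31.2 to 32.2 CPM in the mutant libraries. Without hmgcs1 the sums over the other 8 genes were 32.0, 27.9 and 25.4 CPM in wild type and 25.8, 24.9 and 24.7 CPM in mutant, and the groups overlapped.

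The squalene and lanosterol steps commit farnesyl units to sterols. fdft1, for squalene synthase, stood at 1.92, 1.69 and 1.54 CPM in wild type and 2.14, 2.11 and 1.58 CPM in mutant. The groups overlapped (log2 fold change 0.18, SE 0.26, 95% interval -0.39 to 0.74, edgeR adjusted p = 0.764). sqlea, a squalene epoxidase gene, had 1 count over all 6 libraries, and lss, for lanosterol synthase, had 4 in wild type and 3 in mutant. A difference in either was not detectable at this depth.

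Among the genes that turn lanosterol into cholesterol, none was called. cyp51, the lanosterol demethylase gene, stood at 1.16, 0.751 and 0.970 CPM in wild type and 0.699, 0.604 and 0.928 CPM in mutant (log2 fold change -0.37, SE 0.36). msmo1, for the methylsterol oxidase, stood at 0.450 ± 0.109 CPM in wild type and 0.596 ± 0.0892 in mutant (0.43, SE 0.42). Both intervals reach past 1 on the log2 scale, -1.16 to 0.42 for cyp51 and -0.49 to 1.34 for msmo1, so a 2-fold difference was within what these counts allow.

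The other late sterol genes were too low to be tested. nsdhl, a sterol dehydrogenase gene, reached 29 counts over the wild type and 19 over the mutant libraries. sc5d, a desaturase gene, had 13 and 8, and dhcr7, for the reductase that finishes cholesterol, had 22 and 28. Each of the 3 counting intervals of the mutant to wild type ratio held 1, from 0.240 to 1.74 for sc5d, from 0.377 to 1.31 for nsdhl and from 0.763 to 2.54 for dhcr7.

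Over the 17 sterol enzyme genes with a row, wild type library 1 was the highest of the wild type libraries for 11. Libraries 2 and 3 were each the highest for 3. Among the mutant libraries the same genes were entered as highest in library 1 for 7, in library 2 for 7 and in library 3 for 3. The 7 of library 1 include sqlea, a tie entered there because it had 0 counts in every mutant library. Among the 8 that passed the filter, wild type library 1 was the highest for 4, library 2 for 1 and library 3 for 3. In the mutant the 8 were highest in library 1 for 4, in library 2 for 2 and in library 3 for 2. No such count over all genes is given here. Many of the 17 genes had few counts, so the order is a description of these libraries.

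The fatty acid steps showed no called gene. acaca, the acetyl-CoA carboxylase gene (chromosome 5, 55638382 to 55745993), stood at 7.01, 7.47 and 8.22 CPM in wild type and 12.2, 7.67 and 8.18 CPM in mutant. Mutant library 1 stood above the other 5, which overlapped (log2 fold change 0.31, SE 0.20, 95% interval -0.13 to 0.75, edgeR adjusted p = 0.439). Without mutant library 1 the log2 fold change of acaca was 0.07, and with a correction for gene length it was 0.08.

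Stearoyl-CoA desaturase, which places the double bond of oleate, is encoded here by scd and scdb. scd stood at 1.65, 1.17 and 0.742 CPM in wild type and 2.47, 1.51 and 1.47 CPM in mutant, with overlap between the groups (log2 fold change 0.60, SE 0.35, 95% interval -0.15 to 1.36, edgeR adjusted p = 0.375). scdb held more of the counts of the step, 75.2% in wild type (228 of 303 counts, exact 95% interval 70.0% to 80.0%) and 67.5% in mutant (218 of 323, 62.1% to 72.6%), and stood at 3.71 ± 0.197 and 3.89 ± 0.756 CPM (0.07, SE 0.21). The intervals of these shares pool the counts of a genotype and cover counting error only, not the spread between libraries. The log2 ratio of scd to scdb differed by 0.58 between the groups, with p = 0.4 by the two-sided exact permutation test. Summed, the step had a log2 fold change of 0.22 (SE 0.19, edgeR adjusted p = 0.574).

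fasn stood at 0.759, 0.563 and 0.457 CPM in wild type and 0.792, 0.665 and 0.818 CPM in mutant (log2 fold change 0.34, SE 0.38). With a correction for gene length the log2 fold change of fasn was 0.09. elovl6, for the elongase that makes stearate from palmitate, stood at 1.79, 1.60 and 1.48 CPM in wild type and 1.63, 1.39 and 1.47 CPM in mutant (-0.11, SE 0.26). Groups overlapped for both. Summed over the 5 fatty acid genes with a row, the level was 14.4 to 15.1 CPM in wild type and 20.4, 14.9 and 16.7 CPM in mutant libraries 1 to 3. ATP citrate lyase, which supplies the acetyl-CoA, is represented by aclya, which the RefSeq gene table (assembly GRCz12tu) gives acly as a synonym. aclya stood at 7.48 ± 0.426 CPM in wild type and 8.04 ± 0.267 in mutant (log2 fold change 0.10, SE 0.16, edgeR adjusted p = 0.778). The paralog aclyb held more counts, 1028 in wild type and 1112 in mutant beside 456 and 454 for aclya. aclyb stood at 12.4, 16.7 and 22.5 CPM in wild type and 21.1, 16.8 and 20.8 CPM in mutant, with overlap (log2 fold change 0.19, SE 0.21, edgeR adjusted p = 0.677).

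Of the 3 regulators, srebf1 rose and the other two were not called. srebf1 (chromosome 3, 61824619 to 61850706) stood at 3.93, 2.77 and 4.11 CPM in wild type and 8.53, 5.98 and 6.11 CPM in mutant. All mutant libraries lay above all wild type libraries. The means were 3.60 ± 0.727 and 6.87 ± 1.43 CPM (SD, n = 3 each), a rise of 1.91-fold (log2 fold change 0.94, SE 0.22, edgeR adjusted p = 0.0424). The call ended without wild type library 2 (edgeR adjusted p = 0.183) and without mutant library 1, 2 or 3 (0.216, 0.0882 and 0.114). Without wild type libraries 1 and 2 the log2 fold change was 0.73 (SE 0.28). The library kept was the highest of the wild type for srebf1, so a smaller difference was fixed in advance. Red blood cell markers (5 of 9 tested called higher, beside 1.76% of all tested genes, summed levels of 1226 to 1417 CPM in wild type and 1673 to 1908 in mutant) and endothelial markers (2 of 10 higher, 83.5 to 91.3 and 116 to 135 CPM) moved with the genotype as well, and their part in the srebf1 difference was not tested.

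srebf2 (chromosome 3, 1338453 to 1598731) stood at 12.2, 14.6 and 13.0 CPM in wild type and 13.0, 13.8 and 13.0 CPM in mutant. The groups overlapped, and the log2 fold change was -0.00 (SE 0.15, 95% interval -0.33 to 0.33). The log2 ratio of srebf1 to srebf2 counts was -1.63, -2.38 and -1.66 in wild type and -0.61, -1.20 and -1.08 in mutant. The ratio was 0.93 higher in the mutant with no overlap, p = 0.1 by the two-sided exact permutation test, which is the smallest possible, and 0.2 adjusted over the 6 ratios. Per length, srebf2 lay above srebf1 in both groups, at 2.96 beside 1.03 CPM per kilobase in wild type and 2.96 beside 1.97 in mutant.

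insig1, whose product retains the SREBPs in the endoplasmic reticulum, stood at 1.83, 2.30 and 9.93 CPM in wild type and 3.92, 3.44 and 2.46 CPM in mutant. Wild type library 3 stood far above the other 5. The fit gave a log2 fold change of -0.49 with an SE of 0.73 and a 95% interval of -2.35 to 1.37, which holds sizeable values on both sides of 0. Without wild type library 3 it was 0.67 (edgeR adjusted p = 0.159).

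Sterol uptake and transport genes were low. The low-density lipoprotein receptor genes ldlra and ldlrb had 11 and 22 counts in wild type and 11 and 9 in mutant, and their summed row did not pass the filter either. The counting ratio of ldlrb was 0.444 with an exact 95% interval of 0.180 to 1.00. The log2 ratio of ldlra to ldlrb was 1.35 higher in the mutant (p = 0.1 by the two-sided exact permutation test, 0.2 adjusted), on counts of 1 to 10 per gene and library. stard4, for a protein that carries sterol between membranes, stood at 0.718 ± 0.230 CPM in wild type and 0.625 ± 0.176 in mutant (log2 fold change -0.22, SE 0.42).

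Other genes of lipid synthesis were read from 6 lists that held 108 genes with a row, and 80 passed the filter. The mutant was higher for 1 and lower for 3 of the 80, beside 3.37% of all tested genes called, and their median log2 fold change was -0.08. The malic enzyme gene me1, whose cytosolic product gives the NADPH that fatty acid synthesis spends, stood at 11.8, 10.3 and 8.91 CPM in wild type and 5.08, 4.35 and 3.0 CPM in mutant. It fell 2.49-fold with no overlap (log2 fold change -1.31, SE 0.22, edgeR adjusted p = 0.00722). The mitochondrial malic enzyme gene me2 stood at 12.2, 9.91 and 9.82 CPM in wild type and 20.5, 14.3 and 18.4 CPM in mutant, and rose 1.66-fold (0.73, SE 0.18, edgeR adjusted p = 0.0479). The call of me1 ended only without mutant library 3 (adjusted p = 0.0514), among the single libraries left out. That of me2 ended when wild type library 2 or 3, or 1 of the mutant libraries, was left out (adjusted p of 0.0557 to 0.224).

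In the isoprenoid branches 1 of 13 tested genes was called, beside 3.37% of all tested genes. An unadjusted p under 0.05 was reached by 4 of the 13, 3 higher and 1 lower in the mutant, beside 19.4% of all tested genes. nus1, for a subunit of the enzyme that builds dolichol chains from farnesyl diphosphate, stood at 9.56, 8.08 and 6.34 CPM in wild type and 2.38, 3.87 and 2.73 CPM in mutant. It fell 2.69-fold with no overlap (log2 fold change -1.43, SE 0.23, edgeR adjusted p = 0.00725). Leaving out single libraries ended this call for mutant 1 and mutant 3 (adjusted p of 0.0603 and 0.0612). Without wild type libraries 1 and 2 the log2 fold change was -1.11 for nus1 and -1.12 for me1, again with a lone wild type library. The libraries left out were again the 2 highest of the wild type for each gene, so a smaller difference was fixed in advance. As with hmgcs1 and me1, wild type library 1 was the highest and library 3 the lowest of the wild type for nus1. That order was not limited to lower genes: scd, fasn, fdft1 and me2 had it too, with log2 fold changes of 0.60, 0.34, 0.18 and 0.73. dhdds, of the same list, went the other way, at 4.96, 5.92 and 5.19 CPM in wild type and 6.57, 7.43 and 7.53 CPM in mutant. Its groups did not overlap, and it was not called (log2 fold change 0.42, SE 0.18, edgeR adjusted p = 0.215).

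Of 3 tested further cholesterol enzymes 1 was called, beside 3.37% of all tested genes. lbr and cyb5r3 were not called (log2 fold changes of -0.13 and -0.06). The called gene, faxdc2, encodes a member of the fatty acid hydroxylase family and was lower. It stood at 3.26, 6.48 and 5.31 CPM in wild type and 2.14, 2.66 and 1.86 CPM in mutant (log2 fold change -1.18, SE 0.27, edgeR adjusted p = 0.0385). The call was lost when wild type library 2 or 1 of the mutant libraries was left out (adjusted p of 0.0897 to 0.188). Here wild type library 1 was the lowest of its group, unlike for hmgcs1.

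**Figure D4:**
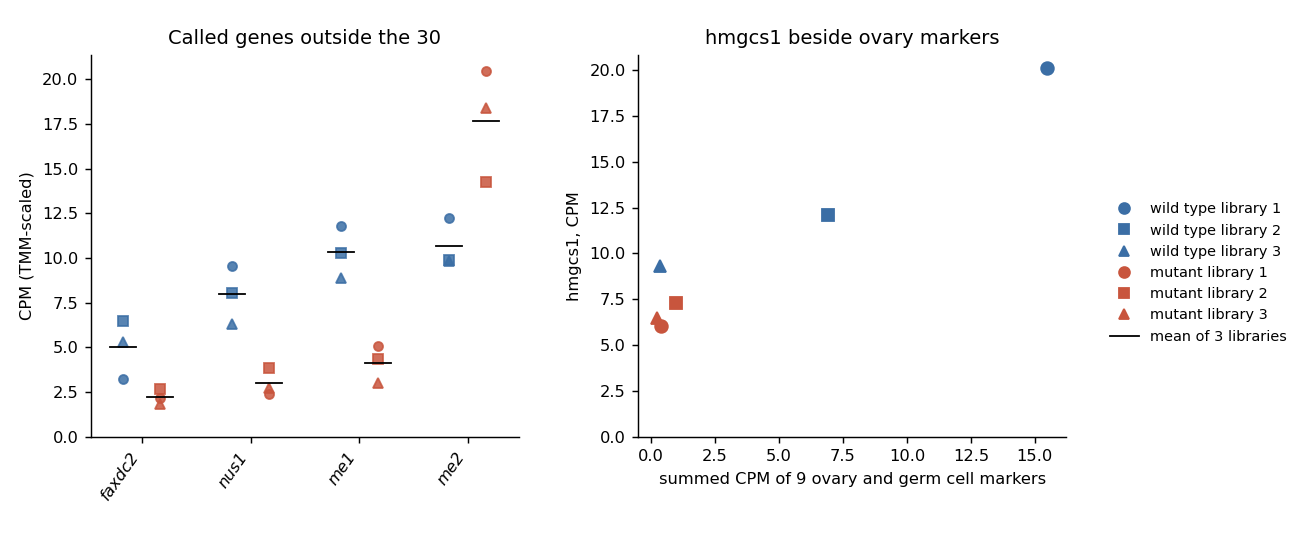
Left, CPM in each library of the 4 called lipid genes outside the list of 30, with a bar at the mean of 3. Right, hmgcs1 CPM against the summed CPM of 9 ovary and germ cell markers, where wild type libraries 1 and 2 hold 15.5 and 6.90 CPM of the markers and the other 4 libraries hold 0.967 or less.

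The remaining 3 lists held no called gene, and an unadjusted p under 0.05 was reached by 19.4% of all tested genes. Of 11 tested genes for SREBP processing and turnover 1 had an unadjusted p under 0.05, and the abundant aup1 and fbxw7 stood at log2 fold changes of 0.01 and 0.27. Of 15 tested genes for sterol export, storage and trafficking 3 did so, and the lipoprotein receptor genes lrp1aa and lrp1ab stood at 0.10 and -0.02. Of 15 tested glycerolipid genes 4 did so. Their most abundant members were the acyltransferase gene agpat3 (log2 fold change 0.23) and the phosphatidate phosphatase gene lpin1, at 53.2 CPM over all libraries with a log2 fold change of 1.28 (SE 0.34, edgeR adjusted p = 0.0914). By DESeq2, 3 of the 80 genes in the 6 lists were called higher and 4 lower, and by limma voom 0 and 2. Over all 14107 tested genes DESeq2 called 348 higher and 327 lower, and limma voom 187 and 161.

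The 2 called members lay close to the threshold. Over the main setting and 15 alternatives hmgcs1 was called in 7 and srebf1 in 8 of 16, with adjusted p from 0.00069 to 0.215 for hmgcs1 and from 0.00338 to 0.216 for srebf1. The direction was the same in all 16 for both, with log2 fold changes of -1.28 to -0.71 for hmgcs1 and 0.75 to 1.04 for srebf1. Of the 15 tested members that were not called, 9 had a 95% interval within 1 on the log2 scale, and 6 had an interval that reached further.

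**Figure D5:**
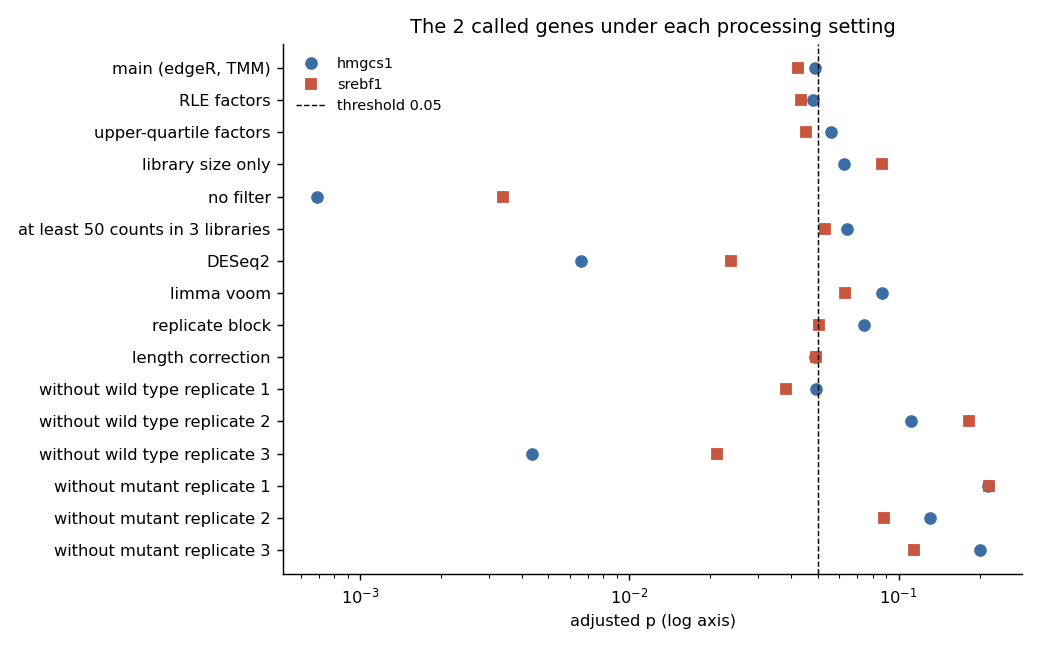
Adjusted p (log axis) of hmgcs1 and srebf1 under the main setting and 15 alternatives, with the threshold of 0.05 as a dashed line. hmgcs1 lies under the line in 7 settings and srebf1 in 8 of 16, and each lies above it when any single mutant library is left out.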

How the data were processed

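For the 6 bulk libraries the deposited values were raw read counts, with 1 column per library and no scaling, per the file headers. The gene model length in bases and the positions come from the same headers, and the table names no genome build. How reads were aligned, and which counter and strand setting were used, is not given in the sources used here. Cell Ranger appears in the submitters' processing notes but is not tied to this table. Without a known strand setting, reads of genes that overlap on opposite strands (pmvk, srebf2 and insig1 among the tested members) cannot be told apart.

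The genotypes were compared in R 4.3.3 with edgeR 4.0.16: filterByExpr (minimum count 10, minimum total 15), TMM factors, robust quasi-likelihood test, no covariate, Benjamini-Hochberg adjustment over 14107 genes. SE is the absolute log2 fold change over the square root of F. limma 3.58.1 voom and DESeq2 1.42.0 were alternatives, as were other scalings and filters, a replicate block, a length correction (lowess, span 0.5) and leaving out each library. Ratios within a library added 0.5 to each count, and sqlea/sqleb could not be computed. Paralog counts were summed before the fit for the reductase, desaturase and receptor steps. The members, lists, rule for named genes (all members, then called genes of each further list, or its 2 most abundant) and tests were chosen with earlier results of these data known. On simulated counts for this comparison (13746 genes, 50 planted per size), 38% of 2-fold and 92% of 4-fold changes were recovered, with 17 false calls beside 116 true ones. No sequence was used.

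Marker lists gave these calls among tested genes: adipocyte 1 of 7 lower, liver 4 of 6 lower, ovary and germ cell 0 tested of 9, epidermis 2 of 7 lower, red blood cell 5 of 9 higher, macrophage 1 of 10 lower, neutrophil 1 of 3 lower, neuron and Schwann cell 0 of 6, endothelium 2 of 10 higher, muscle 0 of 12, bone and tendon 1 of 9 lower. Beside these, 1.76% of all tested genes were called higher and 1.62% lower. Within a genotype no library repeated another (chi-square of counts over degrees of freedom 26.7 to 97.5), and each was entered as 1 replicate. That measure does not show whether the libraries came from different fish.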

Additional observations from a re-analysis of the deposited data

How the results depend on the processing

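Counts of calls moved with the processing, and the cause was not tested. The list of 30 had 0 higher and 0 lower members (0 steps with paralogs summed) with library size only, with at least 50 counts in 3 libraries, with limma voom and with the replicate block. With upper-quartile factors it had 0 lower members and 1 called step. RLE factors, no filter, DESeq2 and the length correction gave 1 and 1. Leaving out single libraries gave 0 to 1 higher, 0 to 1 lower and 0 to 2 steps. Over all tested genes, single libraries left out gave 50 to 572 higher and 65 to 653 lower, no filter 549 and 612, and the filter of 50 counts 127 lower. DESeq2 called 348 of 14107 genes higher and 327 lower, and the setting with no filter tested 25279 genes. The further lipid genes called higher numbered 0 with upper-quartile factors, voom or that filter, 3 with DESeq2 and 5 without a filter; with single libraries left out they had 0 to 5 higher and 0 to 6 lower. Without wild type replicates 1 and 2, a setting added after seeing the data, 137 of all tested genes were higher and 290 lower, with 0 members higher, 1 lower and 1 called step. That member was insig1, whose lone remaining wild type library was the one far above the others; hmgcs1 and srebf1 were not called. No named gene reversed among calls. Replicate numbers carry no stated pairing, and deviations of same-numbered libraries correlated at -0.06, 0.03 and 0.03. TMM factors fell with the number in both groups, at 1.13, 1.04 and 0.882 in wild type and 1.12, 0.959 and 0.898 in mutant. Whether same-numbered libraries shared a batch was not tested. With the replicate block 377 genes were called in place of 476. At this depth 11 of the 28 genes could not be tested; with no filter edgeR called 0 of them (1 had an unadjusted p under 0.05) and DESeq2 0.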
